A study of Mus musculus with 2 samples.

Results

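The matrix proteases and their inhibitors described here are the genes whose symbols belong to the Mmp (matrix metalloproteinase), Timp (tissue inhibitor of metalloproteinases) and Adamts (secreted metalloproteinase with thrombospondin repeats) series. Of 27999 genes listed in both libraries, 46 carry such a symbol, namely 23 Mmp, 4 Timp and 19 Adamts genes. Over both libraries, 29 members had 50 or more UMIs (unique molecular identifiers, each standing for 1 counted RNA molecule), 12 had 1 to 49 and 5 had 0. The members at 0 were Mmp7, Mmp20, Mmp21, Mmp1b and Adamts18, and those with 1 to 49 UMIs were Mmp1a, Mmp24, Mmp25, Mmp27, Mmp28, Adamts3, Adamts6, Adamts12, Adamts13, Adamts16, Adamts19 and Adamts20.

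Single-cell RNA counts were made from lungs of FVB/NJ females into whose tail vein Met-1 carcinoma cells, a line of mouse mammary origin, had been injected at 10 weeks of age. The low-burden library was made at week 1 and the high-burden library at week 3 after injection, with 1 library per group, each taken here as 1 mouse, and no lung without injected cells was used here. After filtering, 2473 low-burden cells with 13283386 UMIs and 3033 high-burden cells with 51467856 UMIs remained, so the high-burden total was 3.87-fold deeper, and 11 cell barcodes occurred in both libraries. There is no replicate check of any difference, intervals are at 95% and cover counting error only, and week, burden, depth and mouse cannot be told apart.

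Metalloproteinases of the Mmp family are made as inactive precursors, and together they cut the collagens, proteoglycans and glycoproteins of the extracellular matrix as well as many signalling proteins. TIMP proteins bind the active site of these enzymes and block it, and TIMP3, which is held in the matrix, also inhibits several ADAMTS enzymes. In the lung, fibroblasts, macrophages and vessel cells are known sources of these genes, and matrix turnover of this kind takes part in repair, emphysema and tumor growth.

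Cell classes were set by marker gates, that is, ranges on a score of each class's marker genes, and are named with the ending "-like". A class was given to 2069 low-burden and 2592 high-burden cells. Over both libraries 122 cells lay just above the score limit and 19 just under it, within 0.05. Cells with 2 classes at the limit, 310 at week 1 and 257 at week 3, stayed without a class. Metastatic-like cells numbered 1350 at high burden and 0 at low burden. Of their 10 markers, 9 were over 2-fold above the level in other cells, the exception being PYMT, the transgene of the carcinoma line. Their median score was 0.459 for their own class and 0.0972 for the next class, C1q macrophage. C1q macrophage-like cells numbered 53 and 791, blood endothelial-like cells 469 and 110, alveolar fibroblast-like cells 209 and 42, mesothelial-like cells 21 and 40 and AT2-like cells (alveolar type 2 epithelium) 111 and 50. Adventitial fibroblast-like cells numbered 244 and 15 and alveolar macrophage-like cells 423 and 3, too few at high burden for a ratio.

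Of the Mmp genes, 10 lie side by side on chromosome 9 between positions 7272514 and 7699585 (GRCm38), in the order Mmp13, Mmp12, Mmp1b, Mmp3, Mmp1a, Mmp10, Mmp8, Mmp27, Mmp20 and Mmp7. Their upstream sequences are shown because Mmp3, Mmp10 and Mmp1a were found mostly in metastatic-like cells and Mmp13, from the same stretch, mostly in C1q macrophage-like cells. Capitals mark TGANTCA, where N is any base. This pattern takes in TGACTCA and TGAGTCA, the sites bound by AP-1 (Fos and Jun) factors, and is wider than these. It was searched on both strands in the 250 bases before each start in the RefSeq promoter set (GRCm38.p6). Each stretch is 60 bases long, on the plus strand of chromosome 9, at chr9:7445749-7445808 for Mmp3, chr9:7502252-7502311 for Mmp10, chr9:7464041-7464100 for Mmp1a and chr9:7272452-7272511 for Mmp13.
Mmp3: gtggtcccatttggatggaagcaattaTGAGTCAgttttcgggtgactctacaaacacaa
Mmp10: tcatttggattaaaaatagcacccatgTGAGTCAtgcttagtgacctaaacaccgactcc
Mmp1a: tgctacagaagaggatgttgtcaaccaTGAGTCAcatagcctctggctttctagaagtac
Mmp13: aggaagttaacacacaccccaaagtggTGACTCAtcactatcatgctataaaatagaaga

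The match lay 46 bases before the start in Mmp3, 63 in Mmp10, 73 in Mmp1a and 35 in Mmp13. Among the 32 members with an entry, 8 held a match, and all 8 belong to the chromosome 9 group (the other 4 were Mmp12, Mmp1b, Mmp20 and Mmp7). The Mmp20 match read TGAATCA, which is outside the AP-1 sites named above. Over all 32851 promoter windows of this length, 6.75% held the letters, against 22.9% of the 35 member windows. Mmp7, Mmp20 and Mmp1b carried the letters and had 0 UMIs. The RefSeq window of Timp1, on the plus strand of chromosome X, held no match. Its last 60 bases before the start, at chrX:20870106-20870165, are shown because Timp1 was the inhibitor that differed most upward between the libraries.
Timp1: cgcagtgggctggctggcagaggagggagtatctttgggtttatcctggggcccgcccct

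To ask how the proteases and inhibitors of the whole organ differ between low and high burden, UMIs were first summed over all kept cells and scaled to CPM (UMI counts per 1000000 UMIs of the sum). Members stood mostly lower at high burden. Among the 29 members with 50 or more UMIs, 6 were at least 2-fold higher and 16 at least 2-fold lower, where 11.8% and 26.8% of all 13635 genes with as many UMIs passed those limits. The median log2 ratio was −1.26 over these members and −0.28 over all tested genes. When metastatic-like cells were left out, 5 of 28 members were at least 2-fold higher and 17 at least 2-fold lower, against 6.94% and 19.6% of all genes, with a median of −1.48 against −0.29. By family over all kept cells, 2 Mmp genes were higher and 7 lower of 14 tested, 3 Adamts genes were higher and 7 lower of 11, and 1 Timp gene was higher and 2 lower of 4.

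**Figure D1:**
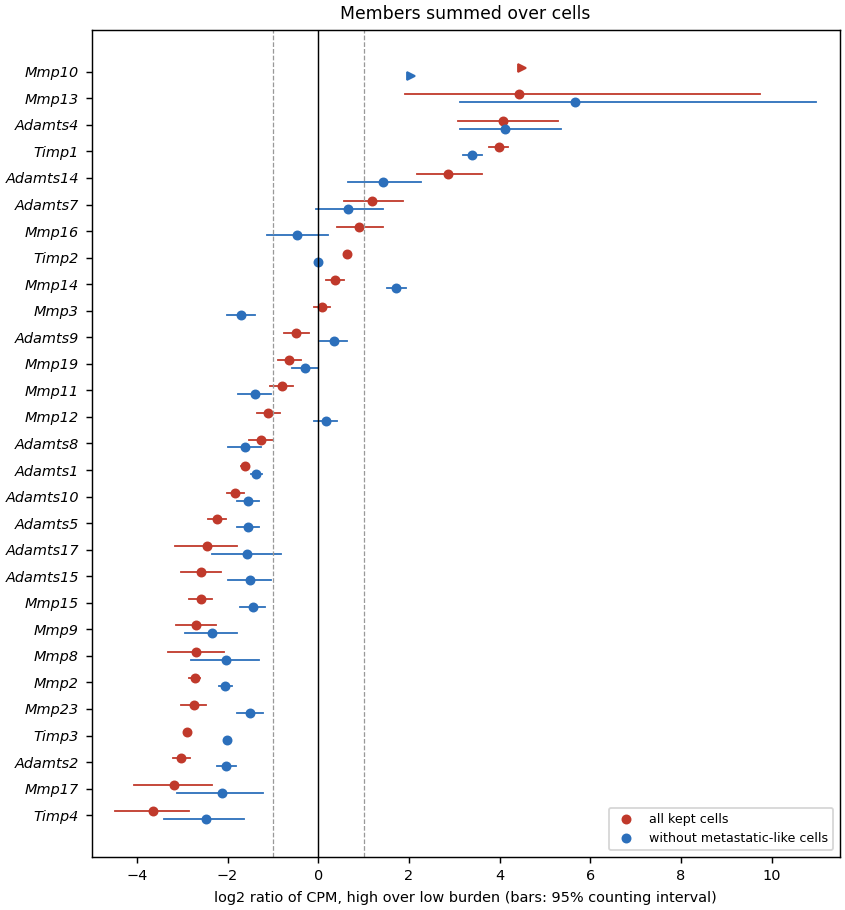
Log2 ratio of CPM, high over low burden (x axis), for the 29 members with 50 or more UMIs, summed over all kept cells (red) and without metastatic-like cells (blue). Bars are 95% counting intervals, dashed lines mark 2-fold, and triangles are lower bounds where the low-burden library had 0 UMIs. Timp1, Adamts4 and Mmp13 lie to the right with and without metastatic-like cells, whereas Mmp3 and Mmp14 change place when these cells are left out.

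Of the inhibitors, Timp1, a secreted protein that also acts as a growth factor, had 193 UMIs at low burden against 11786 at high burden. This was 14.5 against 229 CPM, a log2 ratio of 3.98 (3.77 to 4.19). Without metastatic-like cells, Timp1 stood at 153 CPM at high burden, with a log2 ratio of 3.40, so it was higher in the remaining cells too. Of its high-burden UMIs, 1376 were in cells without a class. The remaining cells may include carcinoma cells that missed the gate, since carcinoma clusters held 1390 high-burden cells and 1312 of these passed it. Timp2, which besides inhibiting MMPs forms a complex with MMP14 that activates MMP2, had 564 and 872 CPM (log2 ratio 0.63, 0.59 to 0.66), and 557 CPM at high burden without metastatic-like cells. Timp3 went the other way, with 7799 low-burden UMIs (587 CPM) and 4063 high-burden UMIs (78.9 CPM), a log2 ratio of −2.89, and −2.03 without metastatic-like cells. Timp4, the least widely expressed inhibitor, had 58 and 18 UMIs (log2 ratio −3.64, −4.49 to −2.86), and 72.4% of its low-burden UMIs came from smooth muscle or pericyte-like cells. Timp1 and Timp3 thus stood on opposite sides of the 2-fold limits in the whole organ.

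The stromelysins MMP3 and MMP10 cut proteoglycans and activate other pro-MMPs. Mmp3 had 295 low-burden and 1208 high-burden UMIs, 22.2 and 23.5 CPM, a log2 ratio of 0.08 (−0.11 to 0.27). This near-equal total came from different cells. At low burden, 79.3% of Mmp3 UMIs were in adventitial fibroblast-like cells, and at high burden 89.2% were in metastatic-like cells. Mmp10 had 0 UMIs at low burden and 263 at high burden, at least 22.6-fold higher against a limit of 3 counts, and 93.2% of these were in metastatic-like cells. Mmp1a, a collagenase, had 0 and 21 UMIs, of which 20 were in metastatic-like cells. Its relative Mmp1b, from the same stretch of chromosome 9, had 0 UMIs. With so few UMIs Mmp1a is uncertain, and any reads that fit both genes may not have been counted.

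The collagenases MMP8 and MMP13 cleave fibrillar collagen. Mmp13 had 1 low-burden and 83 high-burden UMIs, a log2 ratio of 4.42 (1.90 to 9.74), and 74.7% of the high-burden UMIs were in C1q macrophage-like cells. Mmp8, the neutrophil collagenase, had 62 and 37 UMIs (log2 ratio −2.70), and 51.6% of the low-burden UMIs were in alveolar macrophage-like cells, a class of 3 cells at high burden. Mmp12, macrophage elastase, had 203 and 366 UMIs, 15.3 and 7.11 CPM. Its log2 ratio of −1.10 became 0.16 without metastatic-like cells, and 1 low-burden cell held 27.6% of its low-burden UMIs. The cells that carried Mmp12 also differed, with 36.9% of its low-burden UMIs in alveolar macrophage-like cells and 46.2% of its high-burden UMIs in C1q macrophage-like cells.

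The gelatinases MMP2 and MMP9 degrade denatured and basement-membrane collagen. Mmp2 had 1469 low-burden UMIs (111 CPM) and 860 high-burden UMIs (16.7 CPM), a log2 ratio of −2.73 (−2.85 to −2.60), and −2.05 without metastatic-like cells. Adventitial fibroblast-like cells held 46.8% of its low-burden UMIs. Within fibroblasts, Mmp2 stood at 572 CPM (530 to 616) in low-burden and 559 CPM (426 to 719) in high-burden adventitial fibroblast-like cells, so the lower total was not matched by a lower level in that class. In a sum over cells of a lung, fewer cells of a type and less RNA per cell cannot be told apart. Mmp9 had 120 and 72 UMIs (log2 ratio −2.69), and 50.0% of its low-burden UMIs were in the 53 C1q macrophage-like cells.

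Of the membrane-bound proteases, Mmp14 (MT1-MMP, a collagenase at the cell surface) had 240 low-burden and 1202 high-burden UMIs, 18.1 and 23.4 CPM. Its log2 ratio was 0.37 over all kept cells and 1.72 (1.52 to 1.92) without metastatic-like cells. The latter was 0.66 with gates 2 times as strict, under which cells that no longer pass as metastatic-like count among the rest, and then lies inside the 2-fold limit. Of its high-burden UMIs, 52.9% were in C1q macrophage-like cells. Mmp15, another membrane type, had 24.1 and 3.98 CPM (log2 ratio −2.60), and Mmp17, a membrane-anchored member, had 42 and 18 UMIs (−3.18). Mmp16 (membrane type) had 38 and 275 UMIs with a log2 ratio of 0.90, and 85.5% of the high-burden UMIs were in metastatic-like cells. Mmp23 had 22.5 and 3.36 CPM (−2.74). Mmp11 (stromelysin 3, −0.81) and Mmp19 (−0.64) stayed inside the 2-fold limits.

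Among the ADAMTS genes, Adamts4, an aggrecanase that cuts the proteoglycans aggrecan and versican, had 8 low-burden and 520 high-burden UMIs, a log2 ratio of 4.07 (3.08 to 5.29), and 4.13 without metastatic-like cells. Adamts14, a procollagen processing enzyme, had 18 and 504 UMIs (log2 ratio 2.85, 2.18 to 3.62), and 86.1% of the latter were in metastatic-like cells. Adamts7, which cuts the cartilage matrix protein COMP, had 24 and 212 UMIs (log2 ratio 1.19), and 0.66 without metastatic-like cells. Adamts2, also a procollagen N-proteinase, went the other way, with 770 and 367 UMIs (58.0 and 7.13 CPM, log2 ratio −3.02), and 63.6% of its low-burden UMIs were in adventitial fibroblast-like cells. The other members at least 2-fold lower were Adamts1 (−1.62) and Adamts5 (−2.23), both of which cleave versican, and Adamts8 (−1.26), Adamts10 (−1.83), Adamts15 (−2.58) and Adamts17 (−2.46). Adamts9 had a log2 ratio of −0.48. When libraries were scaled to the median of ratios over genes instead, which moves every organ-wide ratio by the median of all genes, Adamts8 (−0.98) and Mmp12 (−0.82) were inside the 2-fold limit.

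**Figure D2:**
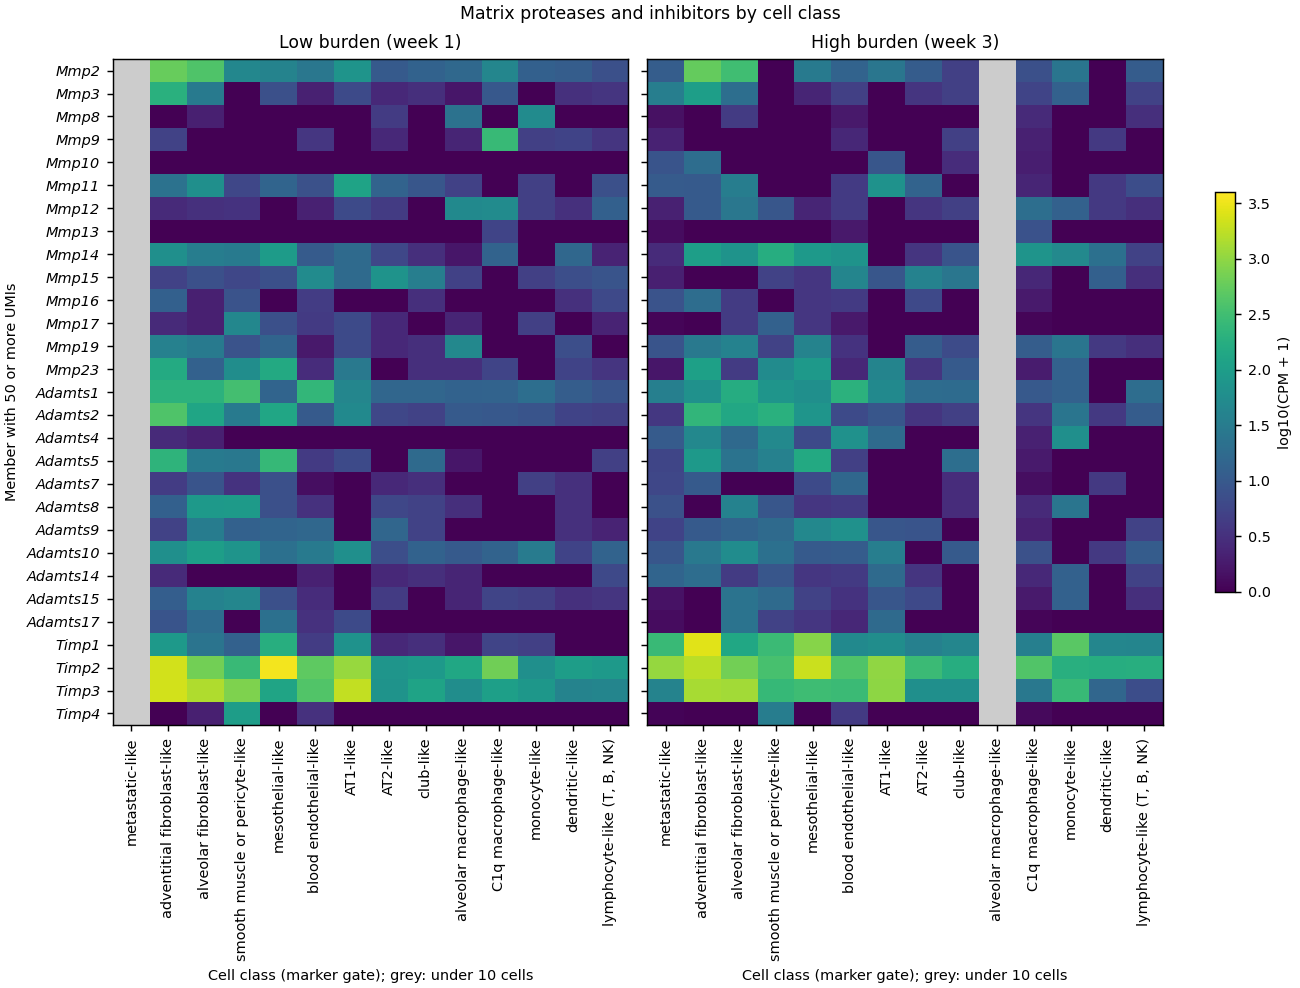
Level of the 29 members with 50 or more UMIs (rows, log10 of CPM + 1, colour) in 14 cell classes (columns) of the low-burden (left) and high-burden (right) library. Grey columns had under 10 cells. Timp2 and Timp3 are bright in fibroblast-like cells of both libraries, Timp1 is brighter in most classes at high burden, and Mmp14 is brighter in C1q macrophage-like and blood endothelial-like cells at high burden.

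The members were next compared between metastatic-like cells and the other high-burden cells, which include those without a class. Of 25 members tested, 4 were at least 2-fold higher in metastatic-like cells and 11 at least 2-fold lower, where 9.82% and 21.1% of 12773 genes were. The median log2 ratio was −0.58 over these members and 0.07 over all tested genes. The 4 higher members were the secreted stromelysins Mmp10 (7.61 against 0.934 CPM, log2 ratio 3.03, 2.33 to 3.80) and Mmp3 (33.4 against 6.80 CPM, 2.30, 2.04 to 2.57), the procollagen proteinase Adamts14 (1.89) and the membrane-type Mmp16 (1.81). With gates 2 times as strict, these log2 ratios were 1.63 for Mmp10, 1.40 for Mmp3, 0.64 for Adamts14 and 1.00 for Mmp16. The median score of metastatic-like cells lay under the stricter limit of 0.5, so most of them then counted among the other cells. Timp2 had 1060 against 557 CPM (0.93) and Timp1 274 against 153 CPM (0.84), both inside the limit. Adamts4 stood at 9.84 against 10.5 CPM (−0.10, −0.36 to 0.16). Its log2 ratio was 0.84 by the mean of each cell's CPM and 1.06 after thinning each cell to 3000 UMIs, so it had no settled direction.

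Mmp14 had the lowest ratio of the tested members, with 57 UMIs in 1350 metastatic-like cells (1.77 CPM) and 1145 UMIs in the other high-burden cells (59.4 CPM), a log2 ratio of −5.07 (−5.48 to −4.69). Lymphocyte-like cells (T, B and NK), taken here as a class that should lack most stromal proteases, held 4.08 CPM of Mmp14 at high burden, and the level in metastatic-like cells was not above it. After thinning each cell to 3000 UMIs, the share of high-burden cells with an Mmp14 UMI was 0.296% for the metastatic-like class, 1.61% for lymphocyte-like cells and 19.6% for C1q macrophage-like cells, whose median depths before thinning were 21961.5, 6851 and 10441 UMIs. Before thinning, 53 of 1350, 2 of 62 and 375 of 791 of these cells had an Mmp14 UMI. Mmp12 (−3.89), Mmp13 (−3.61), Mmp23 (−3.60), Mmp15 (−3.02), Adamts15 (−2.62), Adamts2 (−2.30), Timp3 (−1.86), Adamts9 (−1.70), Adamts5 (−1.33) and Mmp2 (−1.32) were also lower. Adamts9 and Adamts5 were inside the limit at −0.89 and −0.76 after thinning.

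Within metastatic-like cells the stromelysins were held by few cells. Mmp3 was found in 349 of 1350 cells, and 37 cells held 50% of its 1077 UMIs. Mmp10 was found in 119 cells, and 20 cells held 50% of its 245 UMIs. By contrast Timp1 was found in 1240 cells and Timp2 in 1348, and 214 and 398 cells held 50% of their UMIs. Of the 119 cells with Mmp10, 71 also had Mmp3 (59.7%), whereas 25.9% of all metastatic-like cells had Mmp3. The cells share a library and a deep cell shows more of every gene, so this is a description. After thinning, Timp1 was found in 47.4% of the metastatic-like class against 12.9% of lymphocyte-like cells (8 of 62), Timp2 in 93.0% against 35.5%, and Mmp3 in 6.30% against 1.61%.

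**Figure D3:**
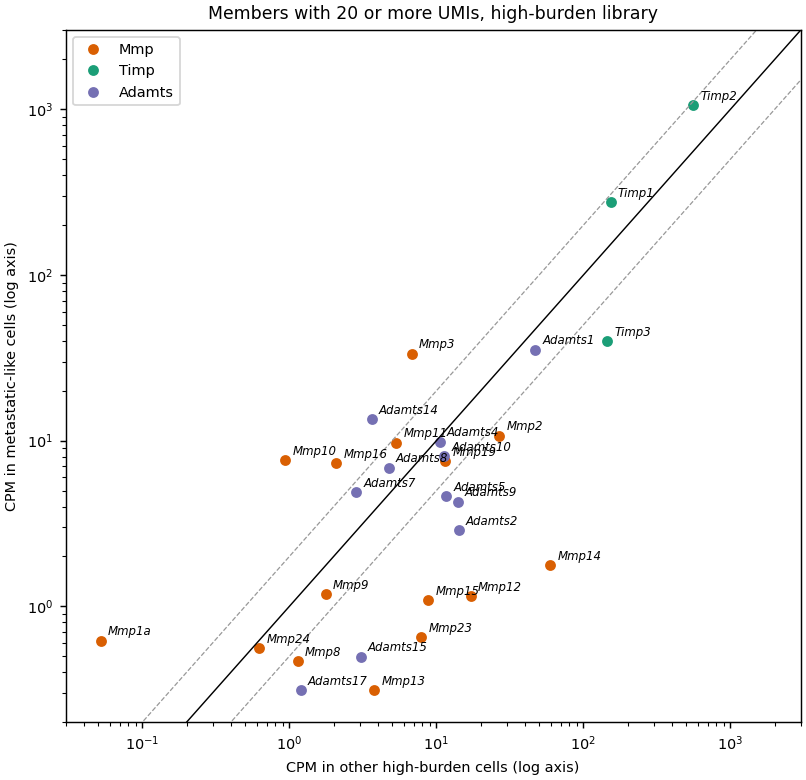
CPM of each member with 20 or more UMIs in metastatic-like cells (y axis) against the other cells of the high-burden library (x axis), both on log axes, coloured by family. The solid line marks equal levels and the dashed lines 2-fold. Mmp10 and Mmp3 lie above the upper dashed line, while Mmp14, Mmp12 and Mmp13 lie far below the lower one.

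Levels were then compared within classes that had 20 or more cells in each library. Timp1 was at least 2-fold higher at high burden in all 4 of the classes in which it had 20 or more UMIs (alveolar fibroblast-like, blood endothelial-like, C1q macrophage-like and mesothelial-like cells). In C1q macrophage-like cells this rests on 1 low-burden UMI, and the log2 ratio was 0.22 with gates 2 times as strict. Lymphocyte-like cells had 0 Timp1 UMIs in 192 low-burden cells and 21 UMIs in 62 high-burden cells (42.8 CPM, 26.5 to 65.5), with 1 cell holding 23.8% of these. The Timp1 levels of other classes are therefore to be read against this value, as the part of free RNA in the class ratios was not tested.

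In alveolar fibroblast-like cells, which surround the air sacs, 2 of 10 members tested were at least 2-fold higher and 1 lower, against 2.79% and 7.32% of 3374 genes. Timp1 had 21 low-burden UMIs (22.9 CPM) and 43 high-burden UMIs (138 CPM), a log2 ratio of 2.59 (1.81 to 3.42), and its high-burden interval of 99.8 to 186 CPM lay above that of lymphocyte-like cells. Mmp14 had 32.7 and 70.6 CPM (log2 ratio 1.11, 0.25 to 1.95), and 0.84 without the top cell of each library. Adamts8 had 79 and 12 UMIs (−1.16, −2.17 to −0.28), and −0.71 with classes from clusters. Timp2 (685 and 680 CPM, −0.01), Timp3 (1479 and 1261 CPM, −0.23) and Mmp2 (409 and 311 CPM, −0.39) stayed within the limits. By contrast, Timp3 and Mmp2 were over 4-fold lower in the sum over all cells but the metastatic-like.

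In blood endothelial-like cells, 4 of 10 members tested were at least 2-fold higher and 1 lower, against 3.86% and 4.51% of 7644 genes. Adamts4 had 0 UMIs in 469 low-burden cells and 85 UMIs in 110 high-burden cells, at least 58.0-fold higher against a limit of 3 counts. These UMIs came from 15 cells, and lymphocyte-like cells had 0 in both libraries. Timp1 had 9 and 65 UMIs (3.41 and 50.4 CPM, log2 ratio 3.89, 2.87 to 5.08), and its high-burden level overlapped that of lymphocyte-like cells. Mmp14 had 26 and 91 UMIs (9.85 and 70.6 CPM, log2 ratio 2.84, 2.20 to 3.53), well above the 4.08 CPM of lymphocyte-like cells. Adamts9, a versican-cutting protease, had 40 and 85 UMIs (15.2 and 65.9 CPM, log2 ratio 2.12, 1.56 to 2.70).

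The endothelial differences were carried by few high-burden cells. Mmp14 was found in 26 of 110 cells and Adamts9 in 27, and with gates 2 times as strict the log2 ratio of Adamts9 was 0.03, that of Mmp14 1.14 and the bound for Adamts4 2.14. After thinning, Adamts9 had a log2 ratio of 0.67. Adamts10, a microfibril-associated member, had 79 and 13 UMIs (−1.57). Adamts1, an endothelial-expressed versicanase with 632 and 262 UMIs, stood at 239 and 203 CPM (−0.24), and Mmp15 at 53.1 and 42.6 CPM (−0.32), although both were at least 2-fold lower in the whole organ. Timp2 (−0.34), Timp3 (−0.57) and Mmp2 (−0.99) also stayed within the limits.

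In C1q macrophage-like cells, 2 of 11 members tested were at least 2-fold higher and 4 lower, against 13.8% and 12.9% of 8742 genes. Mmp14 had 3 UMIs in 53 low-burden cells (13.2 CPM) and 636 UMIs in 791 high-burden cells (72.2 CPM), a log2 ratio of 2.45 (0.90 to 4.73). Mmp9 showed the opposite order, with 60 UMIs from 14 of the low-burden cells (264 CPM, 201 to 339) and 10 UMIs from 9 of the high-burden cells (1.14 CPM, 0.545 to 2.09), a log2 ratio of −7.86 (−8.99 to −6.88). Of the low-burden Mmp9 UMIs, 20.0% were in 1 cell and 4 cells held 50%. Mmp9 was thus higher in the low-burden and Mmp14 in the high-burden cells of this class. The class itself was not made of the same clusters in both libraries, since most of it at week 1 fell in a cluster of 52 cells from that library and 40 from week 3, and most of it at week 3 in a cluster of 1 and 660.

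Timp1 had 1 and 311 UMIs in C1q macrophage-like cells (log2 ratio 3.01, 0.52 to 8.31). Without the top cell of each library no low-burden UMI of Timp1 was left, and its log2 ratio was at least 1.35 against a limit of 3 counts. Its high-burden level of 35.3 CPM and thinned share of 9.99% were not above those of lymphocyte-like cells. Mmp13 had 62 high-burden UMIs from 33 cells, of which 8 held 50%, and 1 UMI at low burden (0.68, −1.85 to 6.01). Mmp12 had 12 UMIs from 4 low-burden cells and 169 from 60 high-burden cells (−1.46), and −0.63 without the top cell of each library. Mmp19 had 0 and 93 UMIs, and no ratio was given because the low-burden limit of 3 counts lay above the high-burden level. Mmp2 (44.0 and 6.47 CPM, −2.76) and Timp3 (105 and 26.5 CPM, −2.00) were lower, and 1 cell held 41.7% of the 24 low-burden Timp3 UMIs. Timp2 stood at 655 and 415 CPM (−0.66).

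Mesothelial-like cells, which line the lung surface, had 7 members tested, with 2 at least 2-fold higher and 0 lower, against 10.9% and 8.04% of 2475 genes. Timp1 had 27 UMIs in 21 low-burden cells (181 CPM, 119 to 263) and 657 UMIs in 40 high-burden cells (892 CPM, 825 to 963), a log2 ratio of 2.30 (1.75 to 2.92). It was found in 15 and 38 of these cells. Timp3 had 127 and 301 CPM (log2 ratio 1.25, 0.57 to 2.00), and 0.60 after thinning. Timp2 stood at 3472 and 2075 CPM (−0.74, −0.89 to −0.60), Adamts5 at 254 and 155 CPM (−0.72), Mmp23 at 154 and 86.9 CPM (−0.82), and Mmp14 at 93.7 and 85.5 CPM (−0.13).

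In AT2-like cells 3 members were tested, of which 1 was at least 2-fold higher and 0 lower, against 4.95% and 3.80% of 1919 genes. Timp2 had 47 and 111 UMIs (75.1 and 285 CPM, log2 ratio 1.92, 1.42 to 2.45). Of the high-burden UMIs, 32.4% were in 1 of 50 cells, lymphocyte-like cells held 181 CPM of Timp2, and the log2 ratio was 0.68 with gates 2 times as strict. Timp3 had 68.7 and 61.6 CPM (−0.16), and Mmp15, which was detected in 40 of 111 and 12 of 50 cells, had 70.3 and 38.5 CPM (−0.87).

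In T cell-like (136 and 36), B cell-like (29 and 25) and dendritic-like cells (57 and 43), Timp2 was the only member with 50 or more UMIs. It had 88.4 and 137 CPM in T cell-like cells (log2 ratio 0.64), 102 and 176 CPM in dendritic-like cells (0.79) and 88.1 and 267 CPM in B cell-like cells (1.60), where 1 cell held 54.5% of the 44 high-burden UMIs. Past the limits were thus 0 of 1 member higher and 0 lower in T cell-like cells, against 9.29% and 7.82% of all genes tested there, 1 and 0 in B cell-like cells against 5.33% and 7.90%, and 0 and 0 in dendritic-like cells against 4.07% and 7.02%. The log2 ratio of Timp2 was thus above 0 in each of these classes and in AT2-like cells. The 176 CPM in dendritic-like cells was not above the lymphocyte-like level, and the part of free RNA in these ratios was not tested. The Timp2 ratio was below 0 in mesothelial-like and C1q macrophage-like cells. In alveolar fibroblast-like cells it was −0.01, and 0.10 with scaling to the median of ratios. In blood endothelial-like cells it was −0.34, and 0.03 with classes from clusters and 0.06 with stricter gates, so neither class had a settled direction. Timp3 in T cell-like cells had 25 UMIs at low burden and 1 UMI at high burden (−3.79, −9.15 to −1.18).

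**Figure D4:**
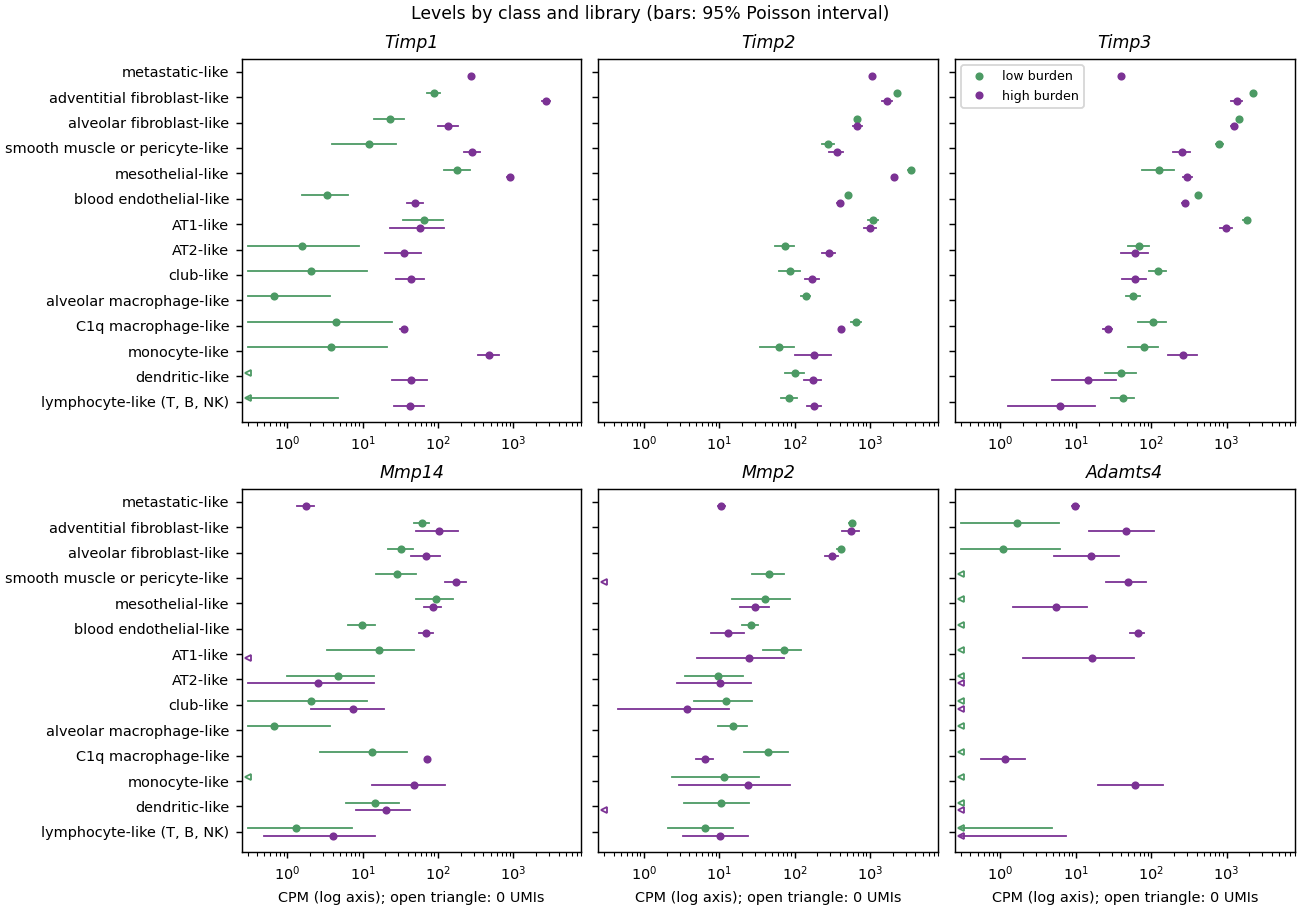
CPM (x axis, log scale) of Timp1, Timp2, Timp3, Mmp14, Mmp2 and Adamts4 in 14 cell classes of the low-burden (green) and high-burden (purple) library. Bars are 95% Poisson intervals, and open triangles mark 0 UMIs. Timp1 stands further right at high burden in mesothelial-like and alveolar fibroblast-like cells, while Timp2 and Timp3 of alveolar fibroblast-like cells nearly coincide between libraries.

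For classes with under 20 high-burden cells, levels are given side by side. Adventitial fibroblast-like cells held 88.1 CPM of Timp1 at low burden and 2747 CPM in 15 high-burden cells, of which 1 cell held 48.5% of 295 UMIs. Timp2 stood there at 2267 and 1686 CPM and Timp3 at 2275 and 1360 CPM. Smooth muscle or pericyte-like cells (80 and 17 cells) held 28.9 and 172 CPM of Mmp14, with 45.2% of the 42 high-burden UMIs in 1 cell, and 803 and 254 CPM of Timp3. AT1-like cells (alveolar type 1 epithelium, 40 and 13 cells) held 1860 and 980 CPM of Timp3, and ciliated-like cells held 86.0 CPM of Mmp15 at low burden. Alveolar macrophage-like cells of the low-burden library held 50.3 CPM of Mmp12, 47.7 CPM of Mmp19 and 21.5 CPM of Mmp8.

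Other genes of matrix proteolysis were taken from 8 lists with 77 genes in all. Over all kept cells, 64 were tested, with 7 at least 2-fold higher and 26 lower at high burden, beside 11.8% and 26.8% of all genes. In metastatic-like against other high-burden cells, 62 were tested, with 7 higher and 30 lower, beside 9.82% and 21.1% of all genes. In both comparisons the share of higher genes was thus near that of all genes, and the share of lower genes was above that of all genes. The 7 higher in metastatic-like cells were Serpine2, Sdc1, Adamtsl4, Papln, Cst6, Htra1 and Pcolce. In that comparison, 0 of 12 cathepsins, lysosomal proteases, were higher and 8 lower. Among the lower were Ctss (66.1 against 1377 CPM) and Ctsc (40.4 against 816 CPM). Of 9 ADAM sheddases, membrane proteases that release cell-surface proteins, 0 were higher there and 5 lower, including Adam8 (5.40 against 33.8 CPM). Between the libraries, over all kept cells, 1 of the 12 cathepsins was higher at high burden (Ctsc, log2 ratio 1.06) and 4 were lower. Ctss stood at 0.04.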

How the data were processed

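Lungs were perfused and dissociated with collagenase and a further enzyme mix before droplet capture. The authors made the deposited UMI counts with Cell Ranger 2.0.2 on mm10 with the PYMT sequence added (the submitters' processing notes also name Seurat). The methods name Cell Ranger aggr, and nothing states if the files were written before or after it. The annotation release is not given in the sources used here.

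Cells with 1000 to 7000 genes and at most 10% mitochondrial counts were kept, as in the study. Cell classes were rebuilt, so differences from the study may come from their names. Counts per 10000 were log-transformed, and each marker was divided by its 99th percentile and capped at 1. A cell took the class with the highest mean, if it was at least 0.25 and 1.5 times the next (alveolar and adventitial fibroblast were not set against each other). Of 175 markers, 4 were absent. Scrublet marked 0.364% and 0.231% of cells, too few to have worked, so doublets were kept.

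UMIs were summed per class and library and scaled to CPM. With 1 library per group no test was made. Counts carry exact Poisson, shares exact binomial (Clopper-Pearson) and ratios exact conditional binomial intervals at 95%. A count of 0 was set to 3 in bounds. Every gene with a matching symbol is a member, and members with 50 or more UMIs over both libraries were given an organ-wide ratio. Within a class a member was tested against the 2-fold limit at 50 or more UMIs. The members, related lists and markers (those of the carcinoma in part from these data) were chosen with earlier results of these data known.

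Identifiers of all 46 members were found in GENCODE M21 (GRCm38), and 32 had a RefSeq promoter. Of the members, 2 overlap another gene on the same strand (Adamts17 and Timp2) and 21 on the other strand (Timp1, Timp3 and Timp4 lie within synapsin genes). Strand use in counting was not stated, so these counts may hold reads of both genes. Alternatives were another scaling, the mean of each cell's CPM, thinning to 3000 UMIs, all barcodes, no Scrublet-marked cells, other UMI minimums, Leiden clusters, stricter gates, no top cell, and no metastatic-like cells. The ratio code was tested on simulated data. Python 3.11.15, numpy 2.4.6, scipy 1.17.1, pandas 2.3.3 and scanpy 1.11.5 were used.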

Additional observations from a re-analysis of the deposited data

Results flagged for a closer look

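Timp3 had opposite directions in different classes. As the log2 ratio of the high-burden over the low-burden library, it was 1.25 in mesothelial-like cells, −2.00 in C1q macrophage-like cells and −3.79 in T cell-like cells, each from 1 library per group. The differences between the classes were not tested. The mesothelial-like value was 0.60 after thinning, and 1 cell held 41.7% of the 24 low-burden UMIs of C1q macrophage-like cells. The T cell-like value rests on 25 and 1 UMIs. Without the top cell of each library no high-burden UMI was left there, and −2.02 is only a bound against a limit of 3 counts.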

How the results depend on the processing

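No paired analysis was possible because each group has 1 library and no test was made, and for the same reason no library could be left out. Of 1008 gene ratios recomputed, 792 stayed within the counting interval of the reported value and 43 changed sign, 42 of them from a reported ratio under 2-fold. The remaining one was Mmp12 over all kept cells, at 0.16 without metastatic-like cells. Leaving these cells out also turned Mmp3 (0.08 to −1.71), Mmp16 (0.90 to −0.46), Timp2 (0.63 to −0.02) and Adamts9 (−0.48 to 0.34). Stricter gates ended the calls of Mmp14 (0.66), Mmp3 (−0.33) and Mmp11 (−0.84) in the sum without metastatic-like cells, and Adamts14 there was 0.93 by the mean of each cell's CPM and 0.83 after thinning. Of 208 recomputed counts of members past 2-fold, 156 were within 1.5 times the reported count, and thinning, stricter gates and other UMI minimums change the number of members tested by construction. After thinning to 3000 UMIs, 3 members were higher over all kept cells, 2 without metastatic-like cells, 0 in alveolar fibroblast-like, 0 in blood endothelial-like, 0 in B cell-like and 1 in mesothelial-like cells, and 2 were lower in C1q macrophage-like and 5 in metastatic-like cells. With a minimum of 1 UMI, 8 were higher without metastatic-like cells, 4 in alveolar fibroblast-like, 8 in blood endothelial-like, 5 in mesothelial-like, 3 in AT2-like, 1 in T cell-like, 2 in B cell-like and 1 in dendritic-like cells, and 3, 3, 7, 1, 18, 3, 1 and 1 were lower in alveolar fibroblast-like, blood endothelial-like, C1q macrophage-like, mesothelial-like, metastatic-like, T cell-like, B cell-like and dendritic-like cells. With 20 UMIs, 2 were lower in alveolar fibroblast-like, 2 in blood endothelial-like, 1 in T cell-like and 1 in dendritic-like cells, and 5 were higher in mesothelial-like cells. With gates 2 times as strict, 0 were higher and 2 lower in alveolar fibroblast-like cells, 0 and 0 in blood endothelial-like cells, 1 and 2 in C1q macrophage-like cells, and 1 was higher in mesothelial-like, 0 in AT2-like, 1 in T cell-like and 0 in B cell-like cells. With Leiden clusters, 2 were lower in alveolar fibroblast-like, 2 in blood endothelial-like, 1 in mesothelial-like and 1 in dendritic-like cells. Without each gene's top cell, 1 was higher and 2 lower in alveolar fibroblast-like cells, and 2 were lower in blood endothelial-like and 1 in AT2-like cells, and 0 were higher in B cell-like cells. By the mean of each cell's CPM, 1 was higher and 1 lower in mesothelial-like and 7 higher in metastatic-like cells, and with all barcodes 1 was lower in mesothelial-like cells. The cause of these shifts was not tested beyond the number of members tested.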
